A study of Mus musculus with 6 samples.

Results

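The CC chemokine ligands of the mouse chromosome 11 cluster were compared between melanomas grown in the footpad and in the flank skin. The family was taken by gene symbol as Ccl2, Ccl3, Ccl4, Ccl5, Ccl6, Ccl7, Ccl8, Ccl9, Ccl11 and Ccl12, which are 10 of the 45777 genes listed in the deposited count table. All 10 passed the filter on low counts, which left 17210 genes for testing. B16F10 cells, an established mouse melanoma line, had been grafted into the hind footpad in 3 samples and into the flank skin in 3 samples, with 1 library of total RNA per tumor. The labels give the hosts of both groups as Foxn1-/- mice, which lack a thymus, at an age of 8 weeks. The methods of the study describe syngeneic B16F10 grafts in C57BL/6J mice, with flank and footpad injected at the same time, and the labels do not say which tumors shared a mouse. Elsewhere the study also reports B16F10 grafts at both sites in Foxn1-null mice, and its RNA sequencing methods name no host. The labels speak of RNA from excised tumors, while the methods state that the tumor cells were isolated and name no procedure for it. Markers of stromal and myeloid cells were read in all 6 libraries, with values given below. The study compared the sites to examine the transcriptional effect of mechanical stress, which the footpad bears during walking.

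CC chemokines are small secreted proteins named for a pair of adjacent cysteines, and they bind G protein-coupled receptors on leukocytes and draw those cells along a concentration gradient. Within the family, Ccl2, Ccl7, Ccl8 and Ccl12 belong to the monocyte chemoattractant proteins, Ccl11 is an eotaxin, Ccl3 and Ccl4 are macrophage inflammatory proteins, Ccl5 is also known as RANTES, and Ccl6 and Ccl9 are ligands of Ccr1 found in rodents. Tumor cells, fibroblasts, endothelial cells and macrophages are all known sources of such ligands. In bulk RNA, fewer cells of a type and less RNA per cell cannot be told apart.

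Reads counted on genes lay between 46529649 and 66364366 per tumor. The 7 melanocyte lineage markers summed to between 9802 and 24942 CPM (read counts scaled to a common library size with edgeR's TMM factors), which fits the label of melanoma in all 6 tumors. The 10 T and NK cell markers summed to between 0.0517 and 0.379 CPM, and Cd3d, Cd3g, Nkg7 and Gzmb had no read in any tumor. Footpad replicate 2 stood apart, with keratinocyte markers at 577 CPM and skeletal muscle markers at 468 CPM, against at most 38.5 and 59.2 CPM in the other tumors. Without it, edgeR called the same 2 ligands as with it, Ccl2 and Ccl7.

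The ligand genes lie in 2 blocks on chromosome 11 of GRCm38, separated by 1408978 bases. The first block holds Ccl2, Ccl7, Ccl11, Ccl12 and Ccl8, in this sequence along the chromosome, between bases 82035577 and 82116799, all on the plus strand. The second block runs from 83525778 to 83664683 and holds Ccl5, Ccl9, Ccl6 and Ccl3 on the minus strand and Ccl4 on the plus strand. The transcripts of Ccl6 and Ccl9 have 4 exons in GENCODE M21 and those of the other members have 3. The RefSeq models of Ccl3 and Ccl4 overlap by 755 bases on opposite strands, and whether the counting used strand is not given in the sources used here, so that reads from this stretch cannot be assigned with certainty.

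Promoters from RefSeq (GRCm38.p6) were held for 5 of the 10 members, namely Ccl12, Ccl8, Ccl9, Ccl6 and Ccl3. The 250 bases before the annotated start are shown for Ccl12 (chr11:82101595-82101844, plus strand), Ccl8 (chr11:82114935-82115184, plus strand), Ccl9 (chr11:83578637-83578886, minus strand) and Ccl6 (chr11:83593088-83593337, minus strand), because they form 2 of the 3 neighbouring pairs whose ratio, given below, did not overlap between the sites. Capitals mark matches to the motifs searched.
Ccl12: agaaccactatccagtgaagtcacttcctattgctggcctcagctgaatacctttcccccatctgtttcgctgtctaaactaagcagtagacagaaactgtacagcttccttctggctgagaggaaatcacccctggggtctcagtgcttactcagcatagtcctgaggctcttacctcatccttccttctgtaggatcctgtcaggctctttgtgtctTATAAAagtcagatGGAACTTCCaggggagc
Ccl8: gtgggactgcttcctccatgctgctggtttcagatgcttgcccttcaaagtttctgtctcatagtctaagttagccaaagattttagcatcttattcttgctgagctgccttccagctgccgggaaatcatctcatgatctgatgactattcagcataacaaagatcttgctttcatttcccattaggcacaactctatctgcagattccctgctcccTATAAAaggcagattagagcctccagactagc
Ccl9: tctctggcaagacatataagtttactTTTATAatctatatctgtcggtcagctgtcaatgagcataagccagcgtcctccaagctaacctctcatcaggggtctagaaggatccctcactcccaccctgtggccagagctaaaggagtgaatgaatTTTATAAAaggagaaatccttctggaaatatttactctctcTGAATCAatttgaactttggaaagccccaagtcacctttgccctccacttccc
Ccl6: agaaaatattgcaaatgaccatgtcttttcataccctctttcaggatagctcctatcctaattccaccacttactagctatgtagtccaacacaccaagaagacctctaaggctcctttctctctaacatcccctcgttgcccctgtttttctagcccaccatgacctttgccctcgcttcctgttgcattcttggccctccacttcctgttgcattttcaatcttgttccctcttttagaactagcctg

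Both strands were searched for the TATA box core TATAAA, an NF-kB-like core GGANNNTCC, the AP-1 site TGANTCA and the STAT site TTCNNNGAA. Ccl12 and Ccl8 each held a TATA box core close to the start, at -31 to -26 and at -32 to -27. In Ccl9 the core was found at -92 to -87 on the gene's strand, overlapping a match on the other strand at -94 to -89, and again on the other strand at -224 to -219. The NF-kB-like core was found in Ccl12, at -17 to -9, and the AP-1 site in Ccl9, at -53 to -47. None of the motifs was found in the windows of Ccl6 and Ccl3, and the STAT site was found in none of the 5. Of 32851 promoter windows of the same length, 12.4% held the TATA box core, 7.27% the NF-kB-like core, 6.75% the AP-1 site and 7.02% the STAT site. The matches are a description of sequence and not of binding.

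Ccl2 and Ccl7 rose in footpad tumors, and no ligand was lower there beyond the spread between tumors. A gene was called when edgeR's quasi-likelihood test gave a Benjamini-Hochberg adjusted p below 0.05 and the sites differed at least 2-fold. By this rule 2 of 10 ligands were called higher, where 2.89% of all tested genes were, and 0 of 10 were called lower, where 0.872% were. Before adjustment, 5 ligands were higher with p below 0.05 and a 2-fold difference, where 9.16% of all tested genes were, and 0 were lower, where 2.82% were. DESeq2 also called 0 ligands lower, where 2.05% of all tested genes were. Log2 fold changes below are footpad against flank and are given ± the approximate standard error of the fit. The 3 footpad tumors lay above the 3 flank tumors without overlap for 4 ligands, namely Ccl2, Ccl7, Ccl11 and Ccl6, where this held for 17.5% of all tested genes. The reverse held for 0 ligands and for 14.9% of all tested genes. The median log2 fold change of the 10 ligands was 1.92, against -0.00425 over all tested genes. It includes Ccl11 and Ccl3, which passed the filter on low counts through the footpad tumors.

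**Figure D1:**
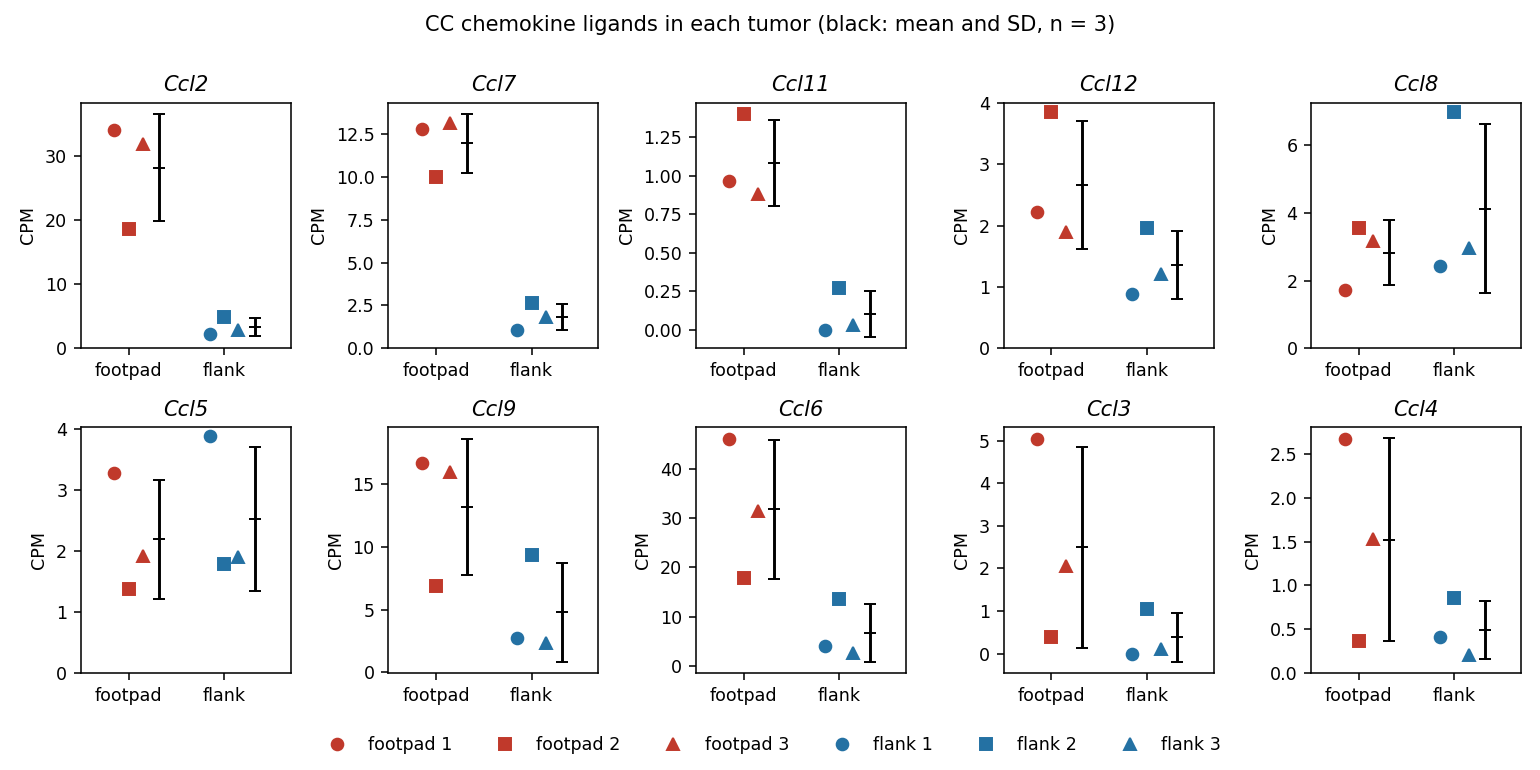
Level of each ligand in CPM (vertical axis, linear) in the 3 footpad and 3 flank tumors, with 1 symbol per tumor and the mean and SD in black. The footpad symbols lie above every flank symbol for Ccl2, Ccl7, Ccl11 and Ccl6, and the groups overlap for the other 6 genes.

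Ccl2, the main ligand of Ccr2 and an attractant of monocytes, was measured at 34.1, 18.6 and 31.9 CPM in the footpad tumors (in this order replicates 1, 2 and 3, here and below). The flank tumors had 2.16, 4.81 and 2.92 CPM. The lowest footpad tumor was thus well above the highest flank tumor. Its log2 fold change was 3.10 ± 0.37 (edgeR adjusted p = 0.0139), and 2.11% of tested genes had a larger one. The call was held without footpad replicate 2 (edgeR adjusted p = 0.0148) and without flank replicate 1 or 2, and it was lost without footpad replicate 1 (0.0546), footpad replicate 3 (0.0636) or flank replicate 3 (0.0631).

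Ccl7, which binds Ccr2 and other receptors of monocytes and lies 8259 bases downstream of Ccl2, showed the tightest footpad values of the family. Footpad levels were 12.8, 9.98 and 13.1 CPM, and flank levels were 1.05, 2.62 and 1.81 CPM. The coefficient of variation among footpad tumors was 14.5% for Ccl7, against 25.9% to 94.7% for the other 9 ligands. Its log2 fold change was 2.71 ± 0.36 (edgeR adjusted p = 0.0148). Ccl7 kept and lost its call without the same tumors as Ccl2, with adjusted p values from edgeR between 0.0152 and 0.0756.

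The other monocyte chemoattractant proteins did not pass. Ccl12, a further ligand of Ccr2, was at 2.22, 3.85 and 1.90 CPM in the footpad and 0.880, 1.97 and 1.21 CPM in the flank. Flank replicate 2 lay just above footpad replicate 3, so that the groups overlapped, and the log2 fold change was 0.97 ± 0.43 (edgeR adjusted p = 0.210). Ccl8, which in mice acts on Ccr8, was at 1.73, 3.54 and 3.18 CPM in the footpad and 2.43, 7.0 and 2.97 CPM in the flank. Its log2 fold change of -0.55 ± 0.48 (edgeR adjusted p = 0.506) rested on flank replicate 2, without which it was 0.063. Ccr8 itself had no read in any of the 6 tumors.

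Ccl11, an attractant of eosinophils through Ccr3, was a gene of low counts with a large and uncertain difference. It had 43, 96 and 43 reads in footpad tumors, or 0.965, 1.40 and 0.878 CPM. In flank tumors it had 0, 16 and 2 reads, or 0, 0.274 and 0.0320 CPM, and the count of 0 in flank replicate 1 allows up to 0.0517 CPM by counting error alone. The groups did not overlap. Ccl11 passed the filter on low counts through the footpad tumors, and the flank tumors alone would not have carried it. Its lack of overlap, its calls under alternatives and its ratio to Ccl12, given below, are therefore no independent support. The log2 fold change was 3.39 ± 1.06 (edgeR adjusted p = 0.103, and from 0.0190 to 0.246 over the alternatives), and without flank replicate 2 it was 5.86 (edgeR adjusted p = 0.0307). Fitted values against a group this close to 0 depend on the prior count and give no bound. The eosinophil markers Siglecf, Epx, Prg2 and Il5ra summed to between 0 and 0.427 CPM in footpad tumors and between 0 and 0.0855 CPM in flank tumors, and Prg2 had no read.

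Ccl6 and Ccl9, neighbours 9249 bases apart and both made mainly by myeloid cells, had higher means in footpad tumors but did not pass. Ccl6 had the highest mean CPM of the family at both sites, at 46.1, 17.9 and 31.4 CPM in the footpad and 4.09, 13.5 and 2.70 CPM in the flank. All footpad values were higher, but footpad replicate 2 and flank replicate 2 lay close together. Its log2 fold change was 2.23 ± 0.63 (edgeR adjusted p = 0.0805), and without flank replicate 2 it was 3.23 (edgeR adjusted p = 0.0241, within a range from 0.000774 to 0.229 over the alternatives). Ccl9 was at 16.6, 6.90 and 15.96 CPM in the footpad and 2.71, 9.32 and 2.30 CPM in the flank. Flank replicate 2 exceeded footpad replicate 2, and the log2 fold change was 1.46 ± 0.59 (edgeR adjusted p = 0.178). Without flank replicate 2 it was 2.39 (edgeR adjusted p = 0.0418, within a range from 0.0418 to 0.391 over the alternatives).

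Ccl3 and Ccl4, which activated macrophages and neutrophils make, were the most variable members among footpad tumors. Ccl3 was at 5.05, 0.379 and 2.06 CPM in the footpad and 0, 1.04 and 0.0959 CPM in the flank. Footpad replicate 2 was 13.3-fold below footpad replicate 1 and lay within the flank range, and the 0 in flank replicate 1 allows up to 0.0517 CPM. Ccl3 passed the filter on low counts through the footpad tumors, and the flank tumors alone would not have carried it. Ccl4 had the same order of footpad tumors, with 2.67, 0.365 and 1.53 CPM in the footpad and 0.414, 0.855 and 0.208 CPM in the flank. The log2 fold changes were 2.71 ± 1.43 for Ccl3 (edgeR adjusted p = 0.276) and 1.62 ± 0.79 for Ccl4 (edgeR adjusted p = 0.244). Leaving out 1 tumor moved that of Ccl3 between 1.67, without footpad replicate 1, and 5.6, without flank replicate 2, and that of Ccl4 between 0.93 and 2.28, without the same tumors.

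Ccl5, an attractant of T cells and monocytes, showed no difference of either sign that held. It was at 3.28, 1.39 and 1.92 CPM in the footpad and 3.90, 1.80 and 1.90 CPM in the flank. Replicate 1 was the highest of its site in both groups. The log2 fold change was -0.21 ± 0.46 (edgeR adjusted p = 0.809), and its sign turned when footpad replicate 2 (0.037) or flank replicate 1 (0.24) was left out. The long noncoding RNA gene Gm32650 overlaps Ccl5, and it was at 0.350 to 0.831 CPM in footpad tumors and 0.240 to 0.690 CPM in flank tumors.

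**Figure D2:**
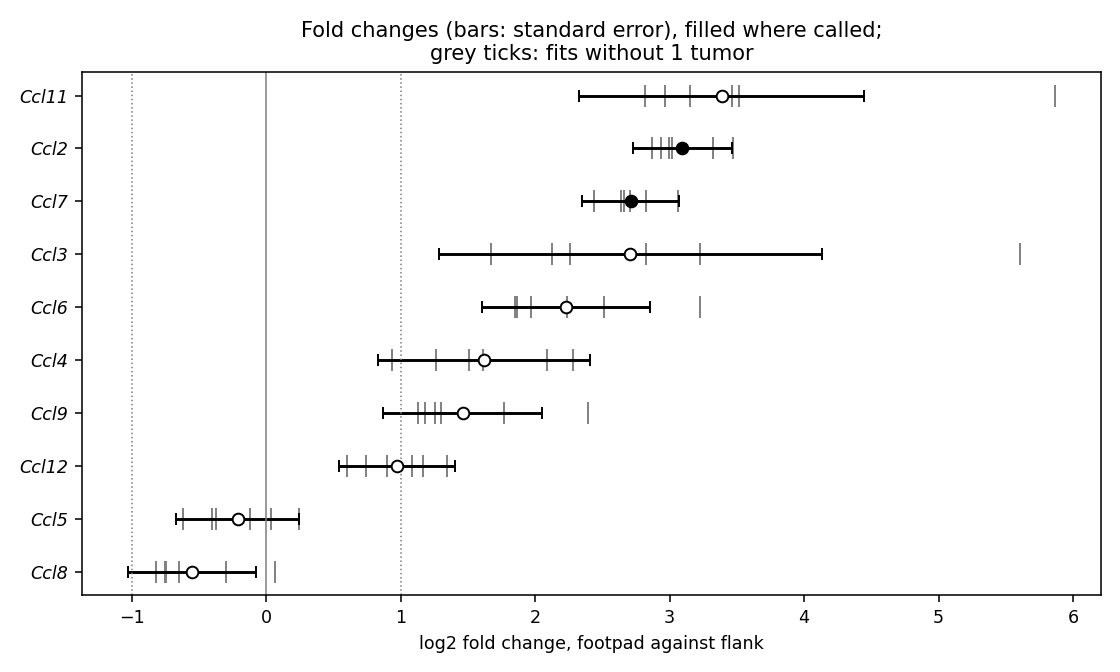
Log2 fold change of each ligand, footpad against flank (horizontal axis), with its standard error as bars and the values without each tumor in turn as grey ticks. Filled points mark Ccl2 and Ccl7, which were called, and dotted lines mark a fold change of 2 in either direction.

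DESeq2, the tool that the study names, called 5 of the 10 ligands higher, where 6.71% of all tested genes were. These were Ccl2, Ccl7, Ccl11, Ccl6 and Ccl9, with adjusted p values from DESeq2 of 0.0190 for Ccl11, 0.000774 for Ccl6 and 0.0463 for Ccl9. The same 5 ligands were called by edgeR without flank replicate 2, where 3.07% of all tested genes were. Without footpad replicate 1, footpad replicate 3 or flank replicate 3, edgeR called 0 of the 10 ligands, where 0.163%, 0.139% and 0.273% of all tested genes were called higher, and 4 ligands had p below 0.05 before adjustment and a 2-fold difference in each of these fits, where 7.12%, 8.19% and 7.19% of all tested genes were higher by that rule. Ccl2 and Ccl7 were the ligands called without footpad replicate 2 (3.78% of all tested genes), without flank replicate 1 (1.62%), with no filter (1.64%), with at least 10 reads in every tumor (3.76%), with upper-quartile factors (2.81%), with limma on log2(FPKM + 1) (1.1%) and with no limit on the fold (3.43%). Limma on log2(FPKM + 0.1) called these and Ccl11 (3.82% of all tested genes).

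The order of the tumors within a site was shared by many members. Flank replicate 2 had the highest flank level of 9 of the 10 ligands, all but Ccl5. Footpad replicate 1 had the highest footpad level of 6 ligands, and footpad replicate 2 had the lowest level of 7 and the highest of 3, Ccl11, Ccl12 and Ccl8, which are neighbours in the first block. Members of 1 library share its depth and its cell composition, and this order is given as a description.

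Levels were compared between genes with the deposited FPKM values (fragments scaled by sequencing depth and by transcript length). In footpad tumors Ccl2 led, at 30.8 ± 7.94 FPKM (SD, n = 3), followed by Ccl6 at 19.3 ± 7.30 and Ccl7 at 13.2 ± 1.62 FPKM, and each of the 3 footpad tumors had this order. The ranges of Ccl2 and Ccl6, and of Ccl6 and Ccl7, overlapped between tumors. Below them a step without overlap led to Ccl8 at 4.97 ± 1.96 FPKM, and from there each gene overlapped the next, through Ccl12, Ccl9, Ccl5, Ccl3 and Ccl4 to Ccl11 at 0.893 ± 0.277 FPKM. In flank tumors Ccl8 had the highest mean, 7.43 ± 5.09 FPKM, ahead of Ccl6 at 4.38 ± 4.14, Ccl5 at 4.14 ± 1.6 and Ccl2 at 3.73 ± 1.85 FPKM. Every gene overlapped the next in the flank order, down to Ccl11 at 0.0899 ± 0.134 FPKM.

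The summed level of the 10 ligands was 98.9, 65.0 and 93.1 FPKM in footpad replicates 1, 2 and 3 and 18.0, 43.9 and 18.2 FPKM in flank replicates 1, 2 and 3. The groups did not overlap, and the ratio of the means was 3.21. The make-up of the sum differed as well. Ccl2 took 33.3% to 38.7% of it in footpad tumors and 12.2% to 17.7% in flank tumors, and Ccl7 took 13.2% to 18.0% and 5.89% to 10.9%. Ccl8 took 2.79% to 9.99% in footpad tumors and 21.5% to 30.2% in flank tumors, and Ccl5 took 3.52% to 5.09% and 7.44% to 33.3%. None of these 4 shares overlapped between the sites. The shares of Ccl6, 18.0% to 26.6% against 9.13% to 20.8%, overlapped. Shares of a fixed total depend on each other, and no test was made on them.

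**Figure D3:**
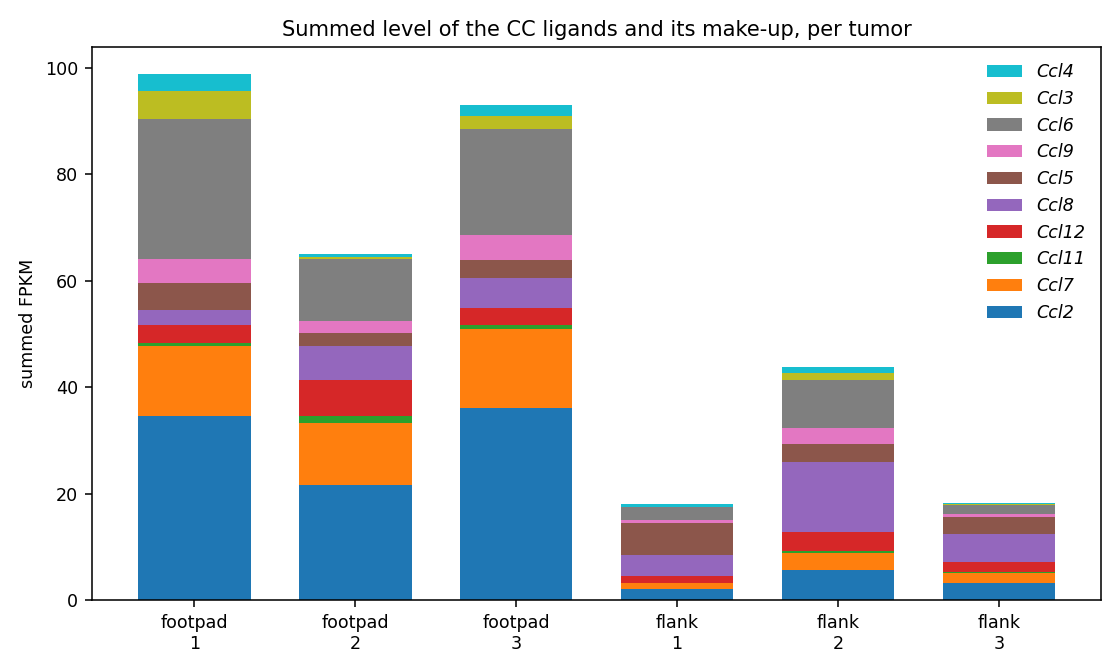
Summed FPKM of the 10 ligands in each tumor (vertical axis from 0), with 1 coloured segment per gene. Ccl2, Ccl6 and Ccl7 make the largest segments in the 3 footpad tumors, whose sums lie between 65.0 and 98.9, and Ccl5 (replicate 1) or Ccl8 (replicates 2 and 3) makes the largest in the flank tumors, whose sums lie between 18.0 and 43.9.

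Ratios between neighbouring genes within a tumor do not depend on the scaling of the library, and they were computed from FPKM for the 8 pairs of neighbours in the blocks. The ratio of Ccl12 to Ccl8 was 1.22, 1.04 and 0.564 in footpad tumors and 0.344, 0.268 and 0.388 in flank tumors. Ccl12 therefore stood higher against its neighbour Ccl8 in every footpad tumor. The ratio of Ccl9 to Ccl6 was 0.172, 0.183 and 0.242 in footpad tumors and 0.316, 0.328 and 0.407 in flank tumors, lower in every footpad tumor. The ratio of Ccl11 to Ccl12 was 0.215, 0.180 and 0.231 in footpad tumors and 0, 0.0685 and 0.0131 in flank tumors. These 3 ratios did not overlap between the sites (two-sided exact permutation test, p = 0.1 each, the smallest that 3 tumors against 3 allow, and 0.267 after Benjamini-Hochberg adjustment over the 8 pairs). The other 5 pairs overlapped, with exact permutation p values from 0.2 to 0.5. Among these, Ccl7 to Ccl2 was 0.377 to 0.540 in footpad tumors and 0.484 to 0.618 in flank tumors.

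**Figure D4:**
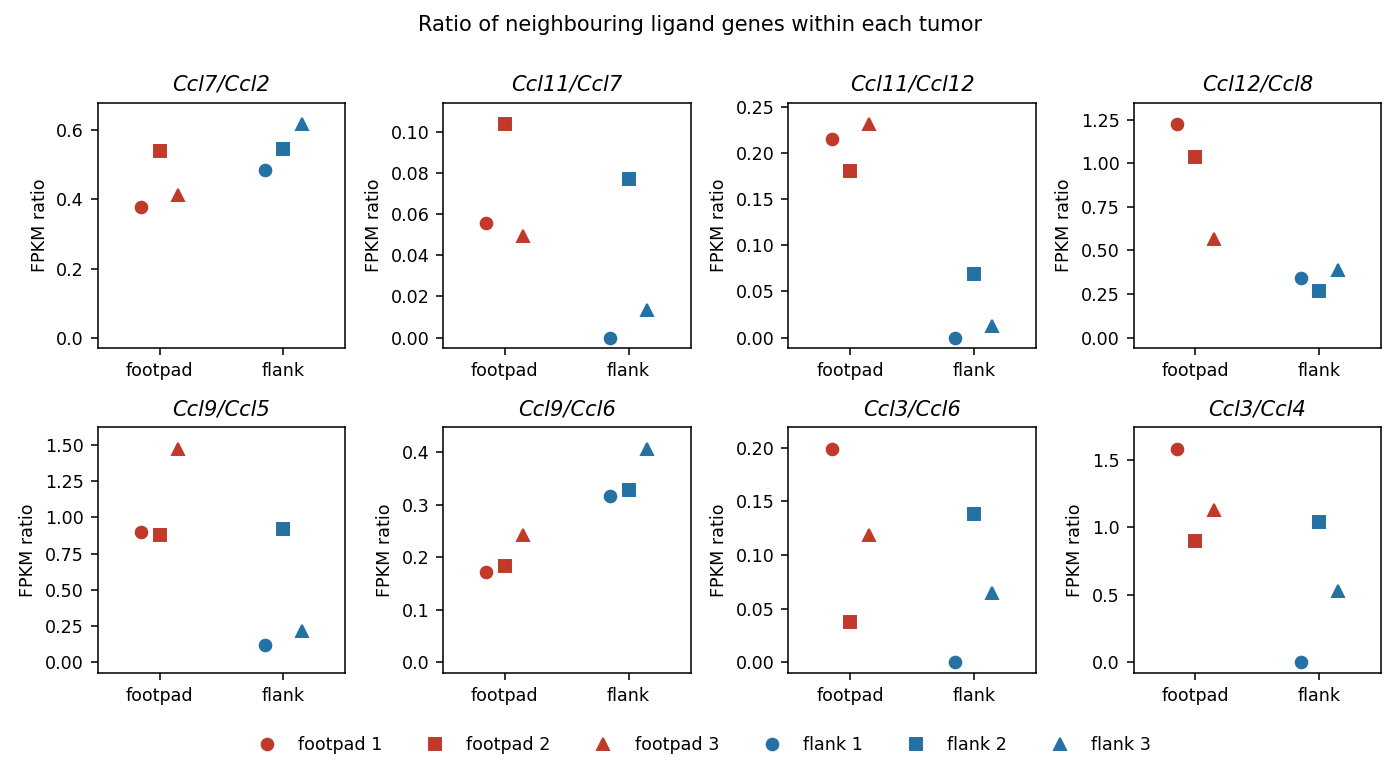
Ratio of the FPKM of 2 neighbouring ligand genes (vertical axis) within each tumor, for the 8 pairs of neighbours, with 1 symbol per tumor. The sites lie apart for Ccl11/Ccl12, Ccl12/Ccl8 and Ccl9/Ccl6, and overlap for the other 5 pairs.

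By block, the first had a median log2 fold change of 2.71, with 4 of 5 members above 0 and 2 called, and the second had a median of 1.62, with 4 of 5 above 0 and 0 called. Of all tested genes, 49.7% had a log2 fold change above 0. Ccl11 in the first block and Ccl3 in the second passed the filter on low counts through the footpad tumors. Their part in these counts and medians is no independent support. The difference between the blocks was not tested.

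Of the receptors of these ligands, Ccr1 and Ccr2, found on monocytes and other myeloid cells, had higher means in footpad tumors but did not pass. Ccr1 was at 39.3, 7.09 and 24.4 CPM in the footpad and 0.759, 6.79 and 2.14 CPM in the flank (log2 fold change 2.87, standard error 0.86, edgeR adjusted p = 0.0952). The groups did not overlap, although footpad replicate 2 and flank replicate 2 were close. Ccr2 was at 21.3, 7.12 and 17.7 CPM against 0.397, 8.07 and 1.6 CPM, with overlap (log2 fold change 2.20, edgeR adjusted p = 0.201). Ccr3, the eotaxin receptor, had at most 0.180 CPM and was not tested. Of 15 CC receptor genes, 7 were tested and 0 were called in either direction. Before adjustment, 3 were higher with p below 0.05 and a 2-fold difference, where 9.16% of all tested genes were. DESeq2 called 3 higher, where 6.71% of all tested genes were.

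Of the CC ligand genes outside the cluster's 10 members, 13 of 14 were listed and 5 tested, with a median log2 fold change of 0.43. Only Ccl21a was called. It guides cells that carry Ccr7 into lymphatic vessels and lymph nodes, and the footpad mean was 0.477 ± 0.102 CPM (SD, n = 3), while no flank tumor had a read. Against the limit of 3 reads per library it was at least 9.49-fold higher (edgeR adjusted p = 0.0236). It had 26, 26 and 23 reads in the footpad tumors, passed the filter on low counts through these alone, and so had to differ in the fit. The call was lost without footpad replicate 1 (edgeR adjusted p = 0.0832), footpad replicate 3 (0.103) or flank replicate 3 (0.0700), and with limma on log2(FPKM + 1), where the difference was under 2-fold. Ccl21b and Ccl21c are near-identical copies of it, so that its count is uncertain. Ccl1, Ccl19 and Ccl26 had no read in any tumor.

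Of 18 cytokines and NF-kB pathway genes known to induce CC ligands or to respond with them, 14 were tested and 14 had a log2 fold change above 0, with a median of 0.76. Of all tested genes, 49.7% were above 0. Some of the 14 passed the filter on low counts through the footpad tumors, and the flank tumors alone would not have carried them. Among these were Tnf, with 0, 29 and 7 reads in flank tumors, and Il6, with 3, 20 and 11. The count above 0 is therefore no independent support. Il33, an alarmin of barrier tissue and stromal cells, was the only one called, at 15.9, 4.97 and 13.7 CPM in the footpad and 0.379, 1.83 and 1.5 CPM in the flank (log2 fold change 3.21, standard error 0.66, edgeR adjusted p = 0.0397). Il33 was also called without footpad replicate 2. The call was lost without any 1 of the other tumors (edgeR adjusted p from 0.0532 to 0.131) and with limma on log2(FPKM + 1) (adjusted p = 0.0599), and DESeq2 called 3 genes of the list. Ifng, Il4 and Il13, cytokines of lymphocytes, had no read in any tumor.

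Markers of the cells that make or answer these ligands were compared as well, and their part in the differences was not tested. Fibroblast markers were the list in which most members were called. Of all tested genes, edgeR called 2.89% higher and DESeq2 6.71%, and 9.16% were higher with p below 0.05 before adjustment and a 2-fold difference. A log2 fold change above 0 was seen in 49.7% of all tested genes. Of 12 macrophage and monocyte markers, 11 had a log2 fold change above 0 and 1, the lysosomal glycoprotein gene Cd68, was called (log2 fold change 1.51 ± 0.32, edgeR adjusted p = 0.0429), and they summed to between 347 and 411 CPM in footpad tumors and between 169 and 284 CPM in flank tumors. Mertk made the largest part of each flank sum, at 134, 91.9 and 89.6 CPM. In footpad tumors it was at 112, 79.2 and 85.6 CPM (log2 fold change -0.19). Lyz2 made the largest part of each footpad sum, at 139, 132 and 151 CPM, against 9.49, 72.7 and 20.6 CPM in flank tumors. The sums therefore weigh Mertk and Lyz2 most. The log2 fold changes of the remaining macrophage markers ran from 0.28 (Cd163) to 2.85 (Itgam). Flank replicate 2, which had the highest flank level of 9 ligands, also had the highest macrophage, fibroblast, neutrophil, endothelial and skeletal muscle sums of the flank tumors. It did not have the highest keratinocyte, dendritic cell or melanocyte sum. Of 10 fibroblast markers, 8 were called higher, and they summed to between 2766 and 3775 CPM in footpad tumors and between 95.9 and 432 CPM in flank tumors. No fibroblast, macrophage or endothelial marker was called by edgeR without footpad replicate 1, footpad replicate 3 or flank replicate 3. In these fits 0.163%, 0.139% and 0.273% of all tested genes were called higher. Without flank replicate 1 there were 4, 0 and 0 (1.62% of all tested genes). Without flank replicate 2 there were 10, 1 and 2 (3.07%), and without footpad replicate 2 there were 8, 1 and 4 (3.78%). Of 11 neutrophil markers, 9 were tested and 0 called (7 with p below 0.05 before adjustment and a 2-fold difference, and 2 called by DESeq2), with overlapping sums of 377, 7.19 and 183 CPM in footpad tumors and from 4.76 to 31.2 CPM in flank tumors. Without footpad replicate 2, 6 neutrophil markers were called by edgeR, where 3.78% of all tested genes were called higher. Footpad replicate 2 was the lowest of the footpad tumors in the neutrophil, macrophage and endothelial sums and in Ccr1 and Ccr2. The single macrophage markers were divided in this tumor. Cd68, Itgam, Lyz2, Fcgr1, Cd163 and Mertk were the lowest of the footpad tumors there, and Adgre1, C1qa, C1qb and C1qc were the highest. Footpad replicate 2 was also the lowest in 7 of the 10 ligands, Ccl3 and Ccl4 among them, and the highest in 3. Endothelial markers, with 6 of 6 log2 fold changes above 0 and 2 called, Pecam1 and Tie1, summed to between 126 and 203 CPM in footpad tumors and between 69.4 and 93.6 CPM in flank tumors. Of the 7 melanocyte lineage markers, 0 were called (1 lower with p below 0.05 before adjustment and a 2-fold difference, and 0 by DESeq2).

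**Figure D5:**
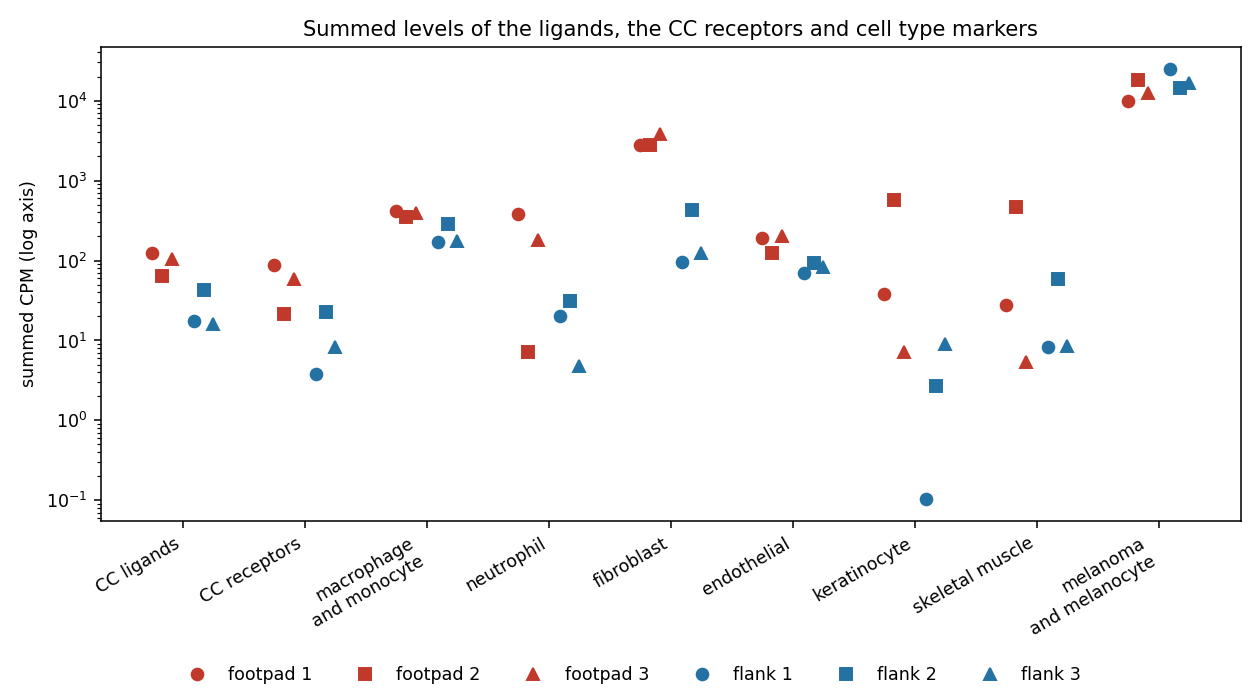
Summed CPM (vertical log axis) of the 10 ligands, the 15 CC receptor genes and 7 lists of cell type markers, with 1 symbol per tumor. The footpad tumors lie above the flank tumors in the ligand, macrophage, fibroblast and endothelial sums, and overlap them in the other sums.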

How the data were processed

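Total RNA of 3 footpad and 3 flank B16F10 tumors was analysed. Per the labels and the study's methods, reads were checked with FastQC 0.11.7, trimmed with Trimmomatic and aligned to mm10 with HISAT2 2.1.0. The authors deposited whole read counts per RefSeq gene, without normalization, and FPKM values. The counting program is not given in the sources used here.

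Counts were tested in R 4.3.3 with edgeR 4.0.16 (TMM factors, filterByExpr at its defaults, glmQLFit and glmQLFTest) and Benjamini-Hochberg adjustment over all tested genes. The call rule was an adjusted p below 0.05 and a difference of at least 2-fold. Standard errors were approximated as the log2 fold change divided by the square root of F. Biological variation (common coefficient 0.338) exceeded counting error, and intervals or limits from counts cover counting error only. Nothing in the labels says that the tumors came from separate mice, so p-values measure the spread between these samples.

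Alternatives were DESeq2 1.42.0, limma 3.58.1 on log2(FPKM + 1) and log2(FPKM + 0.1), no filter, a filter of 10 reads in every tumor, upper-quartile factors, the replicate number as a block, each tumor left out from the same 17210 genes, and no limit on the fold change. Members and gene lists were chosen with earlier results of these data known. The rule for names took all ligands, the called members of the ligand, receptor, inducer and neighbour lists, Ccr1, Ccr2 and Ccr3, and neighbours directly beside a ligand. Marker lists were given by counts and sums. Cd68, Pecam1, Tie1, Mertk, Lyz2, Zbtb46 and the other macrophage markers named singly were named after their values were seen. The same holds for Tnf, Il6 and genes without a read. Another gene that the rule names is not reported here. Ratios of neighbours were added after the data were seen. The fits were tested on simulated data. Gene positions came from RefSeq GRCm38.p6, the build of mm10, in which 45679 identifiers matched. Python 3.11.15 and scipy 1.17.1 were used for tables and exact tests.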

Additional observations from a re-analysis of the deposited data

How the results depend on the processing

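The number of ligands called higher was 5 with DESeq2, and 0 with the replicate number as a block, where 4 ligands had p below 0.05 before adjustment and a 2-fold difference. It lay between 0 and 5 without each tumor in turn. It was 2 without a filter, with 10 reads in every tumor (8 ligands left to test), with limma on log2(FPKM + 1), with upper-quartile factors and with no limit on the fold change, and 3 with limma on log2(FPKM + 0.1). No ligand was called lower in any of these. Over 128 fits of single ligands under an alternative, 110 kept direction and side of the threshold, 8 lost the call, 7 gained it and 3 changed sign without passing: Ccl8 at 0.063 without flank replicate 2, and Ccl5 at 0.037 without footpad replicate 2 and at 0.24 without flank replicate 1. Over the fits without 1 tumor the log2 fold change of Ccl8 ran from -0.82 to 0.063 and that of Ccl5 from -0.62 to 0.24. Why calls changed between tools or without a tumor was not tested.

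Same-numbered tumors did not deviate together (r of their deviations from the site means across genes 0.0544, -0.0965 and -0.115 for numbers 1, 2 and 3), so the numbers were not taken to pair the tumors. With the block, 0 genes passed in all, with 1378 higher and 413 lower at p below 0.05 before adjustment and a 2-fold difference, and the adjusted p of Ccl2 was 0.0719 and of Ccl7 0.0724 (edgeR). The block left 0 called in each list that had calls: other CC ligands, inducers, neighbouring genes, macrophage, fibroblast and endothelial markers.

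Of all genes, 497 were called higher and 150 lower. The numbers were 1154 and 352 with DESeq2, 189 and 59 with limma on log2(FPKM + 1), 590 and 248 with no limit on the fold change, and from 24 to 651 and from 4 to 204 without each tumor. DESeq2 called 6.71% of all tested genes higher. Of the tested members of each list, it called higher 1 of 5 other CC ligands, 3 of 7 receptors, 3 of 14 inducers and 3 of 13 neighbouring genes. Of the markers it called higher 3 of 12 macrophage, 2 of 9 neutrophil, 9 of 10 fibroblast, 4 of 6 endothelial and 2 of 5 keratinocyte markers. Limma on log2(FPKM + 1) called 0 other CC ligands, 0 inducers, 0 neighbouring genes, 0 macrophage markers and 1 endothelial marker, and limma on log2(FPKM + 0.1) called 3 neighbouring genes and 1 endothelial marker. With 10 reads in every tumor there were 0 other CC ligands and 2 inducers, and the neighbouring genes called were 2 without a filter and 0 with upper-quartile factors. Without each tumor the ranges were 0 to 2 for other CC ligands, 0 to 1 for receptors, 0 to 3 for inducers, 0 to 2 for neighbouring genes, 0 to 1 for macrophage markers, 0 to 6 for neutrophil, 0 to 10 for fibroblast, 0 to 1 for mast cell and 0 to 4 for endothelial markers, and 0 to 1 for melanocyte markers called lower.

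The share of each ligand in the sum was computed from CPM as well. The difference of the sites was then 15.1 percentage points for Ccl2 (21.3 from FPKM), 5.05 for Ccl7 (7.73) and -12.8 for Ccl8 (-20.4), with the same signs, and the shares of Ccl7 overlapped between the sites. Depth limits Ccl11 and Ccl3, which had 0 reads in flank replicate 1.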

Other observations

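Of 13 tested genes that lie beside or within the 2 blocks of ligand genes, 1 was called higher and 0 lower in the footpad. Of all tested genes, 2.89% were called higher and 0.872% lower. The median log2 fold change of the 13 genes was 0.50, against -0.00425 over all tested genes. Myo1d, a myosin gene upstream of the first block, between bases 80482126 and 80780055 of chromosome 11, was at 9.14, 2.63 and 6.10 CPM in the footpad and 0.793, 1.71 and 0.895 CPM in the flank (log2 fold change 2.39, standard error 0.53, edgeR adjusted p = 0.0482, with the call kept without footpad replicate 2 and lost without any 1 of the other tumors, at adjusted p from 0.0511 to 0.152). Wfdc17, the tested gene nearest to Ccl4 outside the second block, was at 5.10, 7.92 and 4.39 CPM in the footpad and 1.26, 2.89 and 0.895 CPM in the flank, without overlap (log2 fold change 1.79, standard error 0.49, edgeR adjusted p = 0.0752). Gm38913 and E230016K23Rik, long noncoding RNA genes inside the blocks, had no read in any tumor.

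The 6 mast cell markers summed to between 0.539 and 0.898 CPM in footpad tumors and to 0, 0.838 and 0.0320 CPM in flank replicates 1, 2 and 3. The 5 dendritic cell markers summed to between 9.92 and 13.2 CPM and between 10.5 and 12.4 CPM, with overlap between the sites. Zbtb46 alone was at 8.90 to 10.4 CPM in footpad tumors and 10.4 to 11.6 CPM in flank tumors. The sums therefore describe mostly this gene and not the level of dendritic cells.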
